A study of Homo sapiens with 6 samples.

Results

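The RNAs described here are made by RNA polymerase III: copies of the 7SL RNA, 7SK, the vault RNA VTRNA1-1 and the RNA components of RNase P and RNase MRP. They were taken as 9 listed gene symbols, chosen by their FPKM values (fragments scaled to gene length and library total) in the Con and GLUP samples compared here, and 6 of the 9 matched a gene in a table of 62443 genes: RN7SL2, RN7SL3, RN7SL4P, RN7SL5P, RN7SK and VTRNA1-1. RN7SL1, RMRP and RPPH1 were not matched by symbol and are not analysed here. RN7SK was listed under 2 identifiers at the same locus, which were summed, so that the 6 RNAs came from 7 identifiers. Transcripts were sequenced from HGC-27, an undifferentiated human gastric cancer cell line. There were 3 Con and 3 GLUP samples. Con samples are labelled as untreated, and the methods describe control cells given peptide buffer. GLUP samples were treated with the GLUP peptide, a synthetic peptide designed to glue molecules of the transcription factor TEAD4 together. All 6 samples came from this line without an introduced gene or deletion in the labels, and the length of treatment is stated in more than one way in the study.

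RNA polymerase III transcribes short untranslated RNAs. 7SL is the RNA scaffold of the signal recognition particle, which brings ribosomes making secreted and membrane proteins to the endoplasmic reticulum. 7SK holds the elongation kinase P-TEFb in an inactive particle and so restrains RNA polymerase II, RNase P and RNase MRP process tRNA and rRNA precursors, and vault RNAs are part of the large vault particle. The human genome holds many inserted copies of 7SL and 7SK, and reads from near-identical copies can be assigned to any of them.

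RN7SL2 (297 bases) lies at chr14:50329271-50329567 on the minus strand, and RN7SL3 (297 bases) lies near it at chr14:50320336-50320632 on the same strand. RN7SL2 overlaps an exon of the long noncoding RNA gene ENSG00000282885 on its own strand, which held 0 to 0.131 FPKM. RN7SL4P (294 bases, chr3:15780022-15780315, plus strand) lies in an intron of ANKRD28, and RN7SL5P (288 bases, chr9:9442060-9442347, plus strand) lies in an intron of PTPRD. Both host genes are on the opposite strand and had low levels, 0.0656 to 0.355 FPKM for ANKRD28 and 0.114 to 0.285 FPKM for PTPRD. RN7SK lies at chr6:52860418-52860748 on the plus strand and VTRNA1-1 at chr5:140090860-140090958 on the plus strand, within an exon of the long noncoding RNA gene ENSG00000292256.

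The likeness of the 7SL copies decides what their separate values can mean, and they were aligned end to end from GENCODE release 44 on GRCh37. RN7SL3 was identical to RN7SL2 in 96.3% of aligned positions, with 11 substitutions. RN7SL4P and RN7SL5P were identical to it in 87.2% and 88.3%. Most differences of these 2 copies lay at the 3′ end. Over the first 237 bases of RN7SL2, 230 bases were identical in RN7SL4P, 230 in RN7SL5P and 231 in RN7SL3. Over the rest of the alignment, 35 of 67 columns were identical in RN7SL4P and 34 of 62 in RN7SL5P, against 55 of 60 in RN7SL3. The longest stretch without a difference from RN7SL2 was 192 bases in RN7SL4P, 165 in RN7SL5P and 123 in RN7SL3. Fragments within such a stretch cannot be assigned to 1 copy by sequence, so each copy's own value is uncertain and the 4 were also summed.

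**Figure D1:**
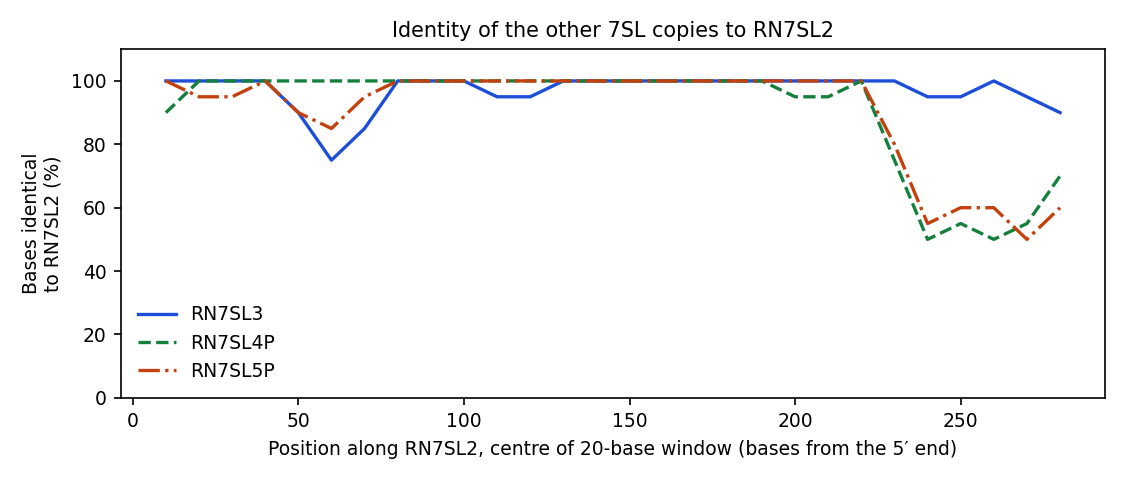
Share of bases (percent, y axis) identical to RN7SL2 in windows of 20 bases along RN7SL2 (x axis, position from the 5′ end) for the other 7SL copies, 1 line per copy. The lines of RN7SL4P and RN7SL5P fall at the 3′ end, where 35 of 67 and 34 of 62 aligned columns were identical, while RN7SL3 stays close to RN7SL2.

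Windows of 250 bases before to 50 bases after each start were searched on both strands for 5 motifs. Among 64476 such windows, the box TATAA was present in 31.0%. The octamer ATGCAAAT, known from snRNA promoters, was present in 2.24%. The core of the cyclic AMP response element, spelled TGACGT, was present in 5.51%. The E-box spelled CACGTG, which MYC is known to bind, was present in 5.53%. The motif of TEAD factors, spelled GGAATG, was present in 14.5%. The 100 bases upstream of 3 starts are shown, because RN7SL2 and RN7SK held matches close to the start and RN7SL5P, the other 7SL copy of higher level, did not (GRCh37, motif matches in capitals).
RN7SL2 (chr14:50329568-50329667, minus strand): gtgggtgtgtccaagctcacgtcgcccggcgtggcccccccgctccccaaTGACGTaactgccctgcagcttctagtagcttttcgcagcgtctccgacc
RN7SL5P (chr9:9441960-9442059, plus strand): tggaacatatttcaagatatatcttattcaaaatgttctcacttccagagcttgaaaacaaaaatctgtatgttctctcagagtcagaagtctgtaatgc
RN7SK (chr6:52860318-52860417, plus strand): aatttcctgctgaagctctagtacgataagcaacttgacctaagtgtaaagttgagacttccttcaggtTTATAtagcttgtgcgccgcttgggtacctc

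RN7SL2 held TGACGT at position -50 from its start. VTRNA1-1 held TGACGT at position -52 and TATAA at position -21. RN7SK held TATAA on the opposite strand at position -31 from the start of its identifier ENSG00000202198, whose upstream bases are shown. From the start of ENSG00000283293, its identifier of higher level, the position was -32. RN7SL5P held TATAA only far upstream, at position -215 and, overlapping it on the other strand, at position -216. RN7SL3 and RN7SL4P held none of these motifs. The octamer, the E-box and the TEAD motif were found in none of these windows. A match describes letters in the window and not a bound site.

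The matched RNAs were not at the top of any library by FPKM, where 20061 to 21498 genes were above 0. The levels of RN7SL1, RMRP and RPPH1 are not known here. Among all genes, RN7SK ranked between 492 and 1034 by FPKM, the summed 7SL copies between 937 and 1989, and RN7SL2 between 1108 and 2412. Together the matched RNAs held 0.0064% to 0.020% of the FPKM total of a library. The labels name total RNA, and whether short or non-polyadenylated RNA was kept in the libraries is not stated in the sources used here.

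Library FPKM totals ran from 909735 to 965147, genes above 0 from 20061 to 21498, and mitochondrial genes held 21.9% to 29.7% of the total. GAPDH was at 569.2 FPKM in Con replicate 2 and at 3318 to 6762 FPKM in the other libraries, and ACTB was at 322.8 to 669.8 FPKM in Con and 795.4 to 1686 FPKM in GLUP, without overlap. Among 5 epithelial markers, KRT8, KRT18 and KRT19 were higher in every GLUP library than in every Con library (KRT18 at 0.917 to 1.00 and 1.64 to 2.51 FPKM), CDH1 was at 0.0148 to 0.0799 FPKM in Con and listed at 0 in GLUP, and EPCAM was at 0 to 0.124 FPKM. Summed, they held 2.97 to 3.70 FPKM in Con and 5.18 to 6.06 FPKM in GLUP. The mesenchymal marker VIM was at 335.6 to 387.2 FPKM in Con and 222.2 to 336.0 FPKM in GLUP. The fibroblast markers COL1A1 and DCN summed to 25.2 to 45.0 FPKM in Con and 18.9 to 27.0 FPKM in GLUP, mostly from DCN. DCN was at 21.4 to 41.35 and 16.03 to 22.25 FPKM, and COL1A1 at 2.967 to 3.84 and 2.858 to 6.905 FPKM. The gastric markers TFF1 and GKN1 and the blood markers HBB and CD3E were listed at 0 in every library, and MUC5AC and PTPRC were at most at 0.0128 and 0.0394 FPKM. The part of these differences in the results was not tested. Across 7388 genes, which are not independent replicates, the deviation of a library from the gene mean correlated with GC content at a Spearman rho of -0.34 in Con replicate 1 and -0.59 in Con replicate 2, and at 0.34 to 0.54 in the other 4 libraries. Of 7406 genes averaging 1 FPKM or more, 0 (0%) passed an adjusted p of 0.05 in limma (Benjamini-Hochberg, lowest adjusted p 0.0806), 1606 (21.7%) had an unadjusted p under 0.05, and 65.5% were lower in GLUP.

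The comparison of GLUP with Con asked which transcripts the peptide alters. All 4 copies of 7SL were higher in GLUP than in Con, with every GLUP value above every Con value. The same held for 7.55% of the genes tested. The copies can share reads, so they are not 4 separate observations. Their sum was 2.54 times as high in GLUP, against 1.65 times with all RN7SL genes summed. RN7SK was also higher on average, at 1.57 times the Con mean, but its groups overlapped. VTRNA1-1 was near 0 in both groups. Values of this contrast guided the choice of these RNAs, so that they are given as a description without a test.

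RN7SL2, a functional copy of 7SL, was at 10.2, 9.85 and 12.2 FPKM in the Con samples and at 21.6, 25.8 and 31.0 FPKM in the GLUP samples. The groups did not overlap, and the means were 10.7 ± 1.26 and 26.1 ± 4.71 FPKM (SD, n = 3 each). The ratio of means was 2.43, and the difference of log2(FPKM + 1) values, a scale that shrinks changes at low levels, was 1.20 (SE 0.29).

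RN7SL5P, which its symbol marks as a pseudogene, was at 3.28, 3.90 and 3.44 FPKM in Con and at 10.1, 10.7 and 9.89 FPKM in GLUP. The GLUP values lay close together and well above those of Con. The means were 3.54 ± 0.320 and 10.2 ± 0.401 FPKM (SD, n = 3 each), a ratio of 2.88 and a log2 difference of 1.31 (SE 0.25).

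RN7SL3 was at 0.675, 0.814 and 0.385 FPKM in Con and at 1.72, 1.23 and 1.72 FPKM in GLUP. RN7SL4P was at 0.351, 0.316 and 0.970 FPKM in Con and at 1.71, 1.04 and 1.48 FPKM in GLUP. In both copies the lowest GLUP value exceeded the highest Con value, for RN7SL4P by little. The ratios of means were 2.49 for RN7SL3 and 2.59 for RN7SL4P, and the log2 difference was 0.66 for each (SE 0.21 and 0.24). The small added constant weighs on levels this low: with 0.01 in place of 1 the differences were 1.35 and 1.52.

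The 4 copies summed to 14.5, 14.9 and 17.0 FPKM in Con and to 35.1, 38.8 and 44.1 FPKM in GLUP. The means were 15.5 ± 1.34 and 39.3 ± 4.51 FPKM (SD, n = 3 each), and the log2 difference was 1.29 (SE 0.28). Of all genes tested, 98.8% had a smaller difference. This contrast guided the choice of the RNAs, and a sum of 4 copies is set beside single genes. Nothing is therefore read from that rank. The median of all genes tested was -0.23, which a trimmed-mean scaling moved by 0.23, and relative to this median the sum was higher by 1.52. Without Con replicate 2 the difference of the sum was 1.27. In bulk samples a change in the number of cells that make an RNA and a change in RNA per cell cannot be told apart.

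RN7SL2 made up most of this sum in every library, at 70.3%, 66.2% and 71.8% in Con and 61.5%, 66.6% and 70.3% in GLUP. RN7SL5P made up 22.6%, 26.2% and 20.3% in Con and 28.7%, 27.5% and 22.4% in GLUP. These shares overlapped between the groups for both copies.

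RN7SK was at 43.7, 108.4 and 43.5 FPKM in Con and at 63.7, 94.8 and 149.1 FPKM in GLUP. Con replicate 2 was higher than 2 of the 3 GLUP samples. The means were 65.2 ± 37.4 and 102.6 ± 43.3 FPKM (SD, n = 3 each), and the log2 difference was 0.70 (SE 0.45). It was 1.13 without Con replicate 2 and 0.39 without GLUP replicate 3. Almost all of it came from the identifier ENSG00000283293, at 43.7, 106.2 and 43.5 FPKM in Con and 63.7, 93.1 and 146.5 FPKM in GLUP. The other, ENSG00000202198, was listed at 0, 2.27 and 0 FPKM in Con and at 0, 1.78 and 2.68 FPKM in GLUP.

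RN7SK exceeded the summed 7SL copies in every library, by 3.01, 7.29 and 2.56 times in Con and by 1.81, 2.45 and 3.38 times in GLUP. These ratios overlapped between the groups. The 7SL sum lacks RN7SL1, which was not matched, and the other RN7SL genes. All RN7SL genes summed to 28.1, 41.2 and 34.8 FPKM in Con and 51.1, 58.2 and 62.3 FPKM in GLUP. RN7SK was above these values too in every library, but by less. Within Con, the 7SL sum varied little, with an SD of 0.11 on the log2(FPKM + 1) scale, smaller than in all but 4.52% of genes tested, while RN7SK had an SD of 0.75, larger than in 83.5%. Within GLUP the SDs were 0.16 and 0.61, larger than in 37.0% and 97.1% of genes. The choice of RNAs used these same values, and a sum of copies is set beside single genes. Nothing is therefore read from these ranks.

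VTRNA1-1, the best known vault RNA, was listed at 0, 0.277 and 0 FPKM in Con and at 0, 0 and 0.288 FPKM in GLUP. A single library in each group held any signal, so no fold is given.

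**Figure D2:**
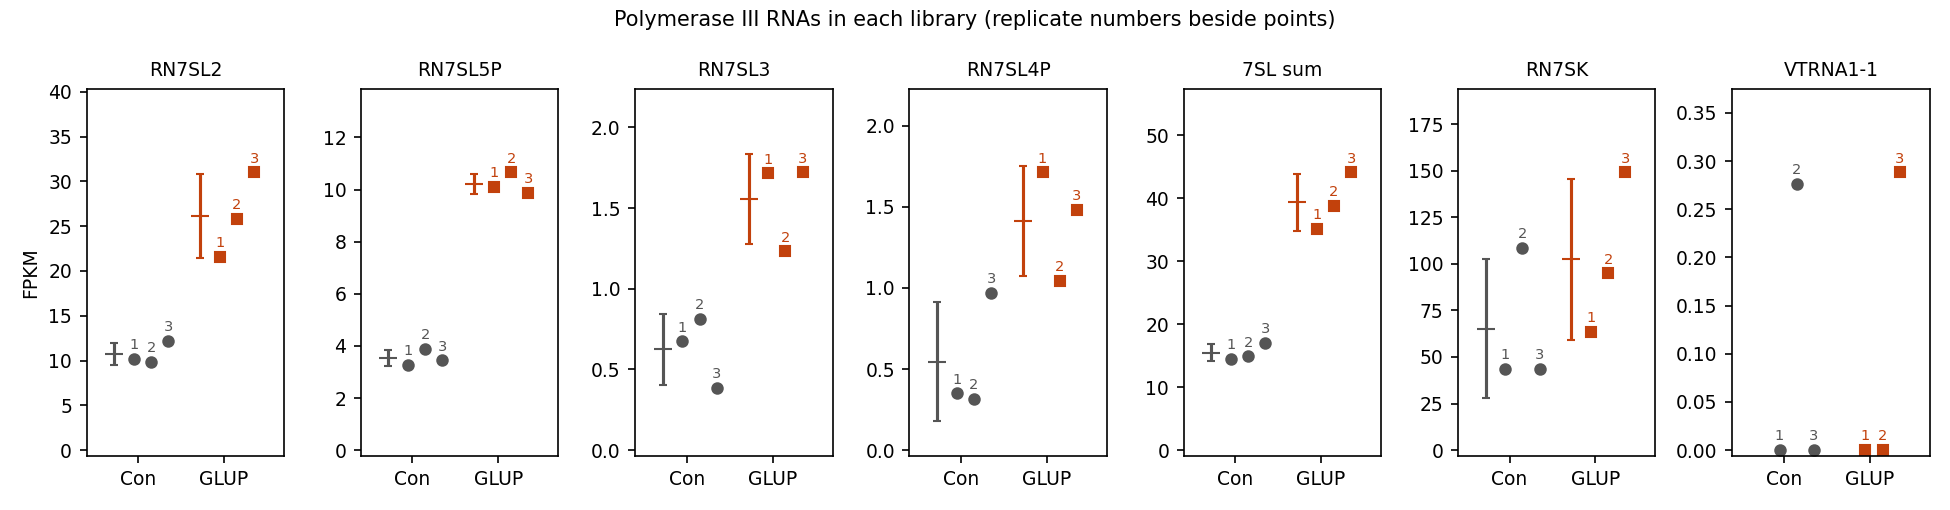
FPKM (y axis, from 0, its own scale in each panel) of each RNA in the 3 Con samples (circles) and the 3 GLUP samples (squares), with replicate numbers above the points and the mean with its SD as a bar at the left of each group, except for VTRNA1-1. Con and GLUP points are apart in the 7SL panels, where the sum runs from 14.5 to 17.0 in Con and from 35.1 to 44.1 in GLUP, and overlap for RN7SK and VTRNA1-1.

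Read against all genes, 4 of the 6 RNAs had every GLUP value above every Con value, as had 7.55% of the genes tested, and RN7SL2 and RN7SL5P were more than 2-fold higher on the log2(FPKM + 1) scale, as were 2.94%. The choice of RNAs used this contrast, so nothing is read from these counts. RN7SL2, RN7SL3, RN7SL5P and RN7SK passed the minimum mean of 1 FPKM, RN7SL3 at 1.09 FPKM and through its GLUP values, while RN7SL4P at 0.979 FPKM and VTRNA1-1 at 0.0942 FPKM did not. The median difference over the 6 RNAs was 0.68, or 0.70 without VTRNA1-1, beside -0.23 over all genes tested. Of the 6 RNAs, 4 are copies that can share reads, and RN7SL4P and VTRNA1-1 are not among the genes tested. Values of this contrast guided the choice of all of them, so nothing is read from their median either.

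These RNAs are GC-rich and short, with 52.5% to 63.0% GC and 99 to 331 bases, against medians of 47.2% and 2200 bases over the genes tested. With a trend on GC content and length removed from each library, the difference of the 7SL sum was 1.25, and it was 1.02 with a locally linear trend chosen after seeing the data.

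The other RN7SL rows, pseudogenes by their symbols, overlapped between the groups when summed. There were 843 such genes, of which 248 were above 0 in any library, and together they held 13.6, 26.4 and 17.9 FPKM in Con and 16.0, 19.5 and 18.2 FPKM in GLUP. The GLUP values lay within the range of Con, and the ratio of means was 0.929. Con replicate 2, at 26.4 FPKM, was the only Con value above all GLUP values, and this ratio rests on it. With all RN7SL genes summed, the libraries held 28.1, 41.2 and 34.8 FPKM in Con and 51.1, 58.2 and 62.3 FPKM in GLUP, a ratio of 1.65 and a log2 difference of 0.72.

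RN7SL329P was the single other RN7SL gene averaging 1 FPKM or more, at 7.13, 7.38 and 6.84 FPKM in Con and 2.37, 7.52 and 4.30 FPKM in GLUP, where 2 of 3 GLUP samples were below Con. The RN7SKP genes, 7SK pseudogenes by their symbols, numbered 292, of which 55 were above 0. They summed to 3.30, 8.66 and 3.60 FPKM in Con and 6.06, 8.54 and 10.1 FPKM in GLUP, and Con replicate 2 was the highest Con sample here as for RN7SK. RN7SKP203, the single one averaging 1 FPKM or more, was at 0.446, 3.26 and 0.692 FPKM in Con and 1.01, 1.71 and 3.54 FPKM in GLUP.

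**Figure D3:**
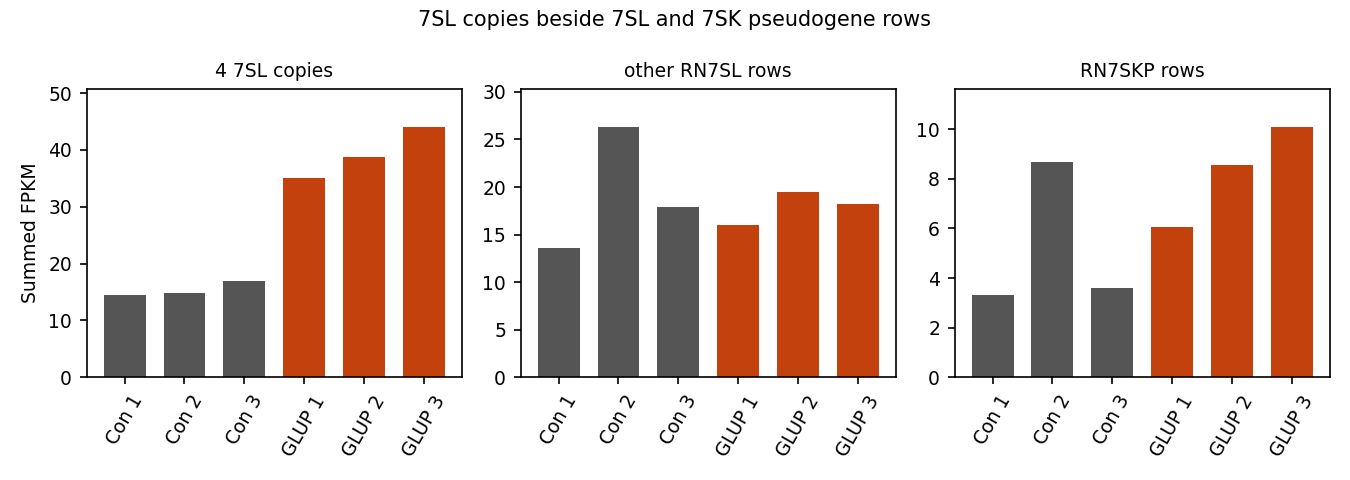
Summed FPKM (y axis, bars from 0, its own scale in each panel) in each library (x axis) for the 4 7SL copies, the other 843 RN7SL genes and the 292 RN7SKP genes. The 7SL copies are higher in all GLUP libraries, the other RN7SL genes at 16.0 to 19.5 in GLUP lie within their Con range of 13.6 to 26.4, and RN7SKP genes overlap between the groups.

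The genes whose pattern was most like that of the 7SL sum were found by the root mean square difference of centred log2(FPKM + 1) values over the 6 libraries. Such a search picks genes that are higher in GLUP, so their group values are not a separate result. RPL27A, a ribosomal protein gene, came closest at 0.147, with 76.7, 94.6 and 106.0 FPKM in Con and 214.1, 199.2 and 298.8 FPKM in GLUP. RPL41P1 (0.167), RPL41 (0.169), RPL41P5 (0.18) and PPIAP11 (0.185) followed, and the 3 pseudogenes among them are near-identical copies of abundant mRNAs and therefore uncertain. RN7SL2 (0.0762) and RN7SL5P (0.141), which make up most of the sum, were closer to it. RN7SL4P (0.379), RN7SL3 (0.384) and RN7SK (0.605) were farther from the sum than all of these genes. RN7SL3 and RN7SL4P are at low levels, where this scale shrinks differences. With a pseudocount of 0.01 they differed by 1.35 and 1.52, beside 1.34 for the sum, so their distance is not read as a different pattern.

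Lists of genes other than the described RNAs, the proteins that bind, process or transcribe them and other short RNAs, were tested with limma. In 105 listed genes, 99 were matched and 52 averaged 1 FPKM or more, of which 3 were RNAs and the rest proteins. By the fitted difference, 41 of the 52 were lower in GLUP and 11 higher, and 0 passed an adjusted p of 0.05 over all genes (limma, Benjamini-Hochberg, lowest adjusted p 0.194). At an unadjusted p under 0.05, 16 were lower, beside 17.2% of all genes tested, and 0 higher, beside 4.46%. All GLUP values were below all Con values in 17 genes, beside 22.7% of all genes, and above in 2, beside 7.55%. The median difference was -0.45, against -0.23 over all genes, and the count of lower genes was 34 with libraries centred on their median and 31 after removal of the trend on GC content and length, where 47.5% and 48.7% of all genes were lower in place of 65.5%. Centring raised by 0.26 those differences in the following paragraphs that were fitted on all samples without removal of a trend. It was not run together with removal of the GC trend or with a sample left out. Without Con replicate 3, 13 of the 52 passed the adjusted threshold, all lower in GLUP, beside 18.5% of all genes tested, or 16.3% counting those lower.

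Among the 8 signal recognition particle proteins and receptor subunits, which partner 7SL, 7 were lower in GLUP and 1 higher (5 and 3 after removal of the GC trend). SRP19, which binds 7SL during assembly, had the largest difference at -1.01 (SE 0.63), with 43.1, 170.8 and 19.6 FPKM in Con and 26.7, 28.1 and 22.8 FPKM in GLUP. Its Con values spanned those of GLUP, and leaving out Con replicate 2 gave -0.17, while leaving out Con replicate 3 gave -1.70. SRP72, a subunit of the translocation domain, was at 37.3, 35.0 and 16.2 FPKM in Con and 14.4, 13.2 and 14.9 FPKM in GLUP, without overlap, a difference of -0.92 (SE 0.36, adjusted p = 0.202 in limma). After removal of the GC trend the differences were -0.49 for SRP19 and -0.37 for SRP72.

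Of 7 proteins of the 7SK particle and P-TEFb, 4 were tested, 2 of them higher and 2 lower (1 and 3 after removal of the GC trend). LARP7, which binds and stabilises 7SK, was at 15.3, 32.4 and 8.22 FPKM in Con and 8.67, 12.0 and 8.60 FPKM in GLUP, a difference of -0.68 (SE 0.44). CCNT2, a cyclin of P-TEFb, differed by -0.53 (SE 0.33). After removal of the GC trend these differences were -0.06 for LARP7 and 0.04 for CCNT2. Without Con replicate 2 they were -0.20 and -0.23, and LARP7 was at -1.13 without Con replicate 3. The groups overlapped for both.

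Of the 11 protein subunits of RNase P and RNase MRP, 9 were lower and 2 higher (7 and 4 centred on the median). RPP40 was at 35.4, 37.7 and 15.6 FPKM in Con and 11.0, 11.9 and 11.6 FPKM in GLUP, a difference of -1.19 (SE 0.37, adjusted p = 0.194 in limma). POP5 differed by -1.17 (SE 0.35), with means of 275.7 ± 94.1 and 120.0 ± 30.0 FPKM (SD, n = 3 each). POP7 and RPP25L were the 2 higher members, by 0.62 (SE 0.34) and 0.61 (SE 0.31), with every GLUP value above Con in both, and they were named after their values were seen. Without Con replicate 2 they differed by 0.31 and 0.37, and POP7 by 0.40 after removal of the GC trend, which left RPP40 at -0.71.

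All 4 factors that bind or modify new polymerase III transcripts were lower, 3 of them after removal of the GC trend. DUSP11, a phosphatase of their 5′ ends, was at 11.1, 10.7 and 4.79 FPKM in Con and 4.96, 3.46 and 3.71 FPKM in GLUP, a difference of -0.90 (SE 0.34). SSB, the La protein that binds their 3′ ends, was at 119.4, 136.1 and 75.8 FPKM in Con and 65.2, 61.6 and 68.6 FPKM in GLUP, a difference of -0.71 (SE 0.32). In DUSP11, Con replicate 3 lay below 1 GLUP value, and in SSB the groups did not overlap. After removal of the GC trend the differences were -0.37 for DUSP11 and -0.05 for SSB.

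Of 11 subunits particular to RNA polymerase III, 10 were tested, 9 lower and 1 higher, a split that became 5 and 5 with libraries centred on their median and 4 and 6 after removal of the GC trend. CRCP differed by -0.89 (SE 0.39) with overlapping groups, and POLR3C by -0.69 (SE 0.28), with 15.0, 11.6 and 9.27 FPKM in Con and 6.73, 7.31 and 6.58 FPKM in GLUP. Of 19 initiation factors and regulators, 12 were tested, 8 lower and 4 higher (7 and 5 after removal of the GC trend). SNAPC1, a subunit of the complex that recruits the polymerase to 7SK and similar promoters, was at 14.8, 13.2 and 10.2 FPKM in Con and 3.53, 3.48 and 4.20 FPKM in GLUP, a difference of -1.52 (SE 0.27, adjusted p = 0.194 in limma). GTF3C6, a subunit of TFIIIC, differed by -1.06 (SE 0.36), with means of 370.4 ± 167.1 and 165.1 ± 6.72 FPKM (SD, n = 3 each). After removal of the GC trend the differences were -0.27 for POLR3C, -0.90 for SNAPC1 and -0.68 for GTF3C6, and CRCP was at -0.51 without Con replicate 2.

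Other RNAs of this polymerase were mostly near 0. Of 17 listed, 3 averaged 1 FPKM or more and 6 were listed at 0 in every library. BCYRN1, a neuronal RNA also found in tumours, was at 14.3, 36.4 and 40.3 FPKM in Con and 31.5, 29.6 and 37.8 FPKM in GLUP, and RNU6-8, a U6 gene, at 3.72, 7.63 and 1.26 FPKM in Con and 1.75, 4.13 and 4.36 FPKM in GLUP. RNY1, a Y RNA, was at 0.371, 4.41 and 0.361 FPKM in Con and 0.683, 0.334 and 0.678 FPKM in GLUP. The groups overlapped for all 3. Of 25 short structured RNAs of RNA polymerase II, 19 were matched and 0 averaged 1 FPKM or more, and the same held for the 3 vault proteins.

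**Figure D4:**
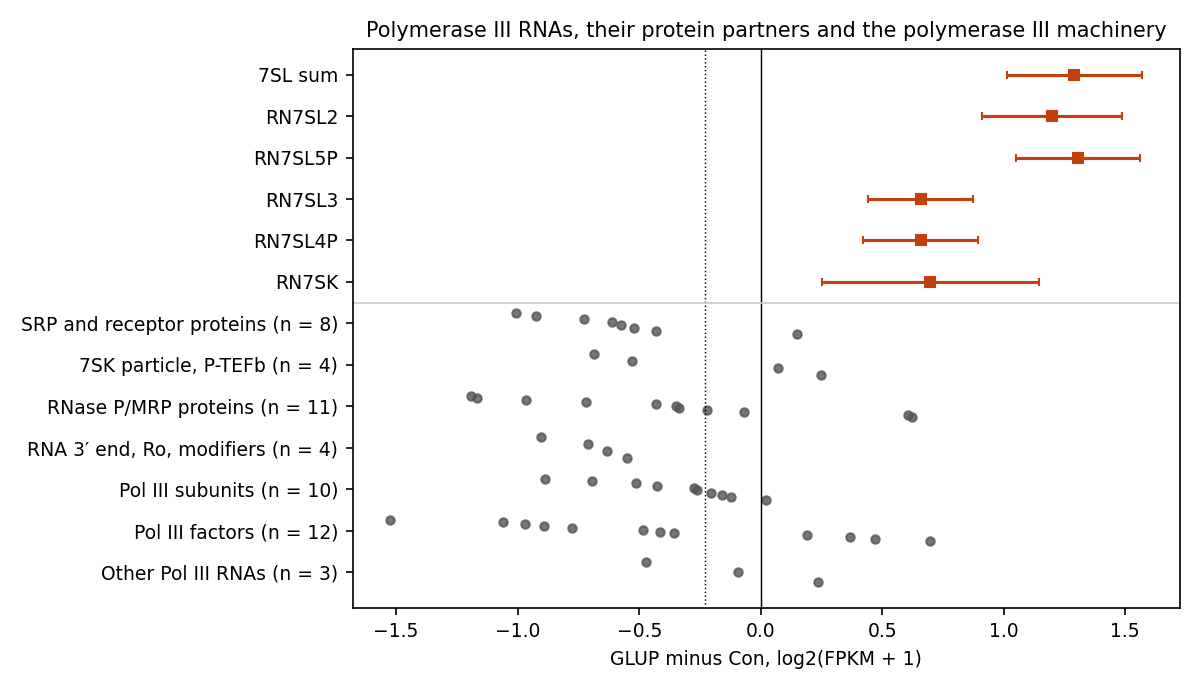
Difference of group means, GLUP minus Con on the log2(FPKM + 1) scale (x axis), for the 7SL sum and single RNAs (squares, bars are the limma SE) and for each tested gene of 7 lists (grey points, number of genes beside the name). The dotted line is the median of all genes tested at -0.23: the 7SL copies and RN7SK lie to the right of 0, and 41 of the 52 listed genes to the left.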

How the data were processed

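The authors deposited 1 table of FPKM values (fragments scaled to gene length and to the mapped fragments of a library) for all 6 samples. The submitters' processing notes name HISAT2, Cufflinks, RSEM and GRCh38.p10, without versions, whereas the identifiers of the table are those of an annotation lifted to GRCh37. GENCODE release 44 on GRCh37 was used here, and coordinates are of that build. Read counts were not recovered, so that no count test and no counting interval is given, and FPKM is relative to each library's total. Strand-specific counting is not stated, so genes that overlap others or have near-identical copies are uncertain. Samples were grouped by their titles. The labels do not say whether replicates were separate cultures, so p-values measure the spread between these samples, which may be technical.

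Of 62492 rows, 49 pseudoautosomal copies were summed with their counterparts, leaving 62443 genes. The 7406 genes averaging 1 FPKM or more were fitted on log2(FPKM + 1) with limma 3.58.1 (eBayes with trend, two-sided, no covariates, Benjamini-Hochberg) in R 4.3.3, after a check on simulated data. Tables, alignments and figures used Python 3.11.15, pandas 2.3.3, numpy 2.4.6, Biopython 1.88 and matplotlib 3.10.9. The RNAs and gene lists were chosen with earlier results of these data known. Named genes were all listed RNAs, the 2 genes with the largest difference in each protein list and any past the threshold, the 5 genes most like the 7SL sum, and RN7SL or RN7SK pseudogenes averaging 1 FPKM or more. Alternatives changed the pseudocount, filter, scaling, GC and length trend, variance model, replicate block and samples. The sequences of the 7SL copies are not reported here.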

Additional observations from a re-analysis of the deposited data

How the results depend on the processing

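The differences of the 4 7SL copies stayed above 0 under every alternative run. Their groups did not overlap, so a change of pseudocount, filter, replicate block or samples could not alter this sign. The copies were also chosen with this contrast known, and nothing is read from the sign. The summed 7SL copies, at 1.29, gave 1.57 under upper quartile scaling, 1.52 under the trimmed mean of log ratios, 1.52 under quantile normalization, 1.55 centred on the median, and, chosen after seeing the data, 1.02 with a locally linear GC and length trend and 0.72 with all RN7SL rows. Leaving out 1 sample gave 1.21 to 1.37. The median over the RNAs, at 0.68, gave 1.25 and 1.31 with pseudocounts of 0.1 and 0.01, 0.90 under upper quartile and trimmed-mean scaling, 0.94 centred on the median, and 0.62 to 0.94 leaving out 1 sample. Genes past the threshold, 0 of 7406, became 1 with a minimum of 5 FPKM, 1 after removal of the GC and length trend (2 if locally linear), 1 without an eBayes trend, and 0 to 1367 leaving out 1 sample: 3 without Con replicate 2 and 1367 without Con replicate 3. Genes of the 9 lists past the threshold ranged from 0 to 13, the 13 without Con replicate 3. The cause was not tested.

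Replicate numbers gave no pairing: deviations of same-numbered samples correlated at 0.13, -0.01 and -0.17 across genes. With a replicate block, 1 gene passed the threshold, alone or after removal of the GC and length trend. FPKM without read counts leaves the counting error of low RNAs such as VTRNA1-1 unknown.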
